A study of Arabidopsis thaliana with 18 samples.

Results

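Histone genes encode the proteins around which nuclear DNA is wrapped, and 44 of them were followed here out of 37899 annotated genes on the 5 nuclear chromosomes of Arabidopsis thaliana. The members were given as TAIR10 loci of histones H1, H2A, H2B, H3 and H4 and their variants, and all 44 were found in the annotation. They comprise 26 replicative genes (5 for H3.1, 4 for H2A, 9 for H2B and 8 for H4), 12 genes for replacement variants (3 for H3.3, 4 for H2A.Z, 2 for H2A.X and 3 for H2A.W), 3 genes for specialised histones and 3 for linker histone H1. The assay was chromatin immunoprecipitation followed by sequencing of histone H3 acetylated at lysine 9 (H3K9ac) or lysine 14 (H3K14ac), so the values below describe acetylated chromatin over histone genes and not their transcripts or proteins.

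Chromatin came from 10-day-old whole seedlings of the Col ecotype, grown on plates. The genotypes were WT, the mutant hda9-1 in the histone deacetylase gene HDA9, and the mutant pwr-2 in POWERDRESS (PWR), which encodes a protein with a SANT domain. Each mutant is represented by 1 allele in the shared Col background, and the nature of the alleles and the number of pooled plants are not stated by the sources read here. H3K9ac was profiled in 2 libraries per genotype and H3K14ac in 1, so H3K14ac values have no replicate check. The 9 input samples were not analysed here.

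Histones are loaded onto DNA by several routes. Replicative histones are made in quantity during S phase and are deposited behind the replication fork, where the chaperone CAF-1 delivers H3.1 with H4. Replacement variants are deposited at any time of the cell cycle: H3.3 goes to transcribed genes through the HIR chaperone, H2A.Z is exchanged in by the SWR1 complex, H2A.X is the form phosphorylated at DNA breaks, and H2A.W marks plant heterochromatin. Acetylation of H3 at the start of genes accompanies transcription in plants, and histone deacetylases such as HDA9 remove it. A whole seedling mixes dividing and non-dividing cells, and in such bulk chromatin fewer cells with an acetylated gene and less acetylation per cell cannot be told apart.

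The libraries differed in yield. Reads inside listed peaks numbered 1948253 and 2223676 for H3K9ac of WT, 12265470 and 18171153 for hda9-1, and 3757931 and 8873855 for pwr-2. The H3K14ac lists held 667780 reads for WT, 875104 for hda9-1 and 1090139 for pwr-2. The WT libraries were thus the shallowest for both marks, and a difference between a mutant and WT cannot be told apart from this difference in depth. A gene without a listed peak is a gene where none was called at that depth. The labelled tissue was checked on marker genes, and 3 of 4 leaf genes were marked in all 6 H3K9ac libraries. RBCS1A, the small Rubisco subunit, was covered over 1510 bp in both WT libraries. The remaining leaf gene, CAB1, was marked in 3, with 716 and 516 bp in WT, 0 and 1230 bp in hda9-1 and 0 bp in both pwr-2 libraries. By contrast, 0 of 3 seed genes and 0 of 1 pollen gene were marked in any. No H3K14ac library marked any of the 4 leaf genes, so the check rests on H3K9ac alone. Several histone genes encode identical proteins from near-identical coding sequences, and how reads that map to more than 1 gene were handled is not stated by the sources read here, so values of single H3.1, H4 and H2B genes are uncertain to that extent.

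A gene was called marked in a library when 50% or more of the 500 bp at 1 of its ends, or of a shorter gene, lay under peaks. In WT, 26 and 29 of the 44 histone genes were marked by H3K9ac (59.1% and 65.9%), against 49.5% and 53.0% of 27444 protein-coding genes. In hda9-1, 31 were marked in each library (70.5%), against 57.4% and 60.2% of protein-coding genes. In pwr-2, 29 and 30 were marked (65.9% and 68.2%), against 51.7% and 56.8%. H3K14ac marked 21 histone genes in WT (47.7%), 28 in hda9-1 and 28 in pwr-2 (63.6% in each), against 40.3%, 47.3% and 48.5% of protein-coding genes. The share of histone genes was above that of protein-coding genes in all 9 libraries. Histone genes are short, with a median annotated length of 975 bp (644 to 2991) against 2078 bp for protein-coding genes. Among the 20393 protein-coding genes no longer than the longest histone gene, the H3K9ac share was lower still, at 45.5% to 54.6%. That limit, 2991 bp, was set by HTR12 alone. The set is therefore not matched to histone genes in length, and the part of length was not tested.

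**Figure D1:**
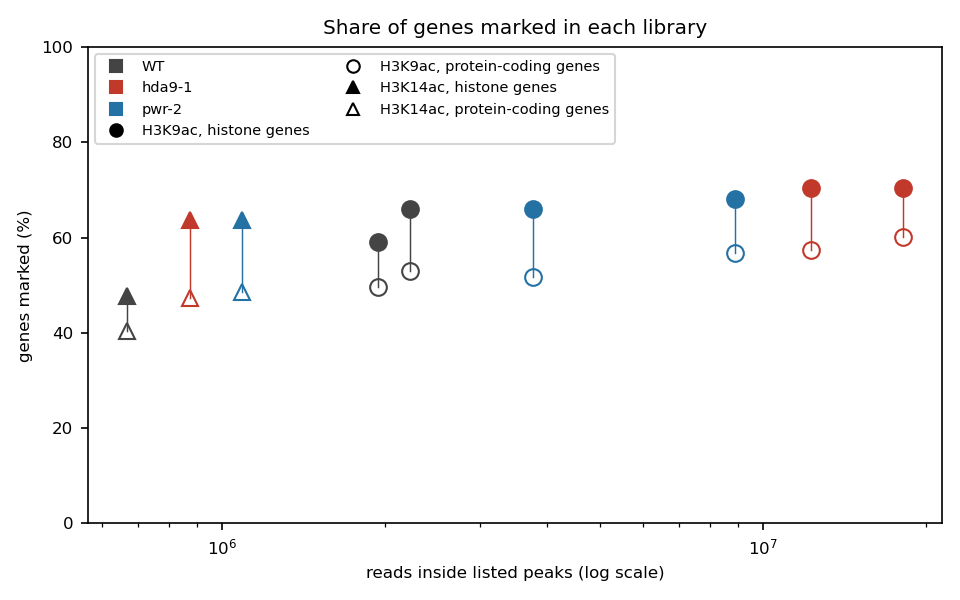
Share of genes marked in each library (percent, vertical axis) against reads inside listed peaks (log scale). Filled symbols are the 44 histone genes and open symbols the 27444 protein-coding genes of the same library; circles are H3K9ac and triangles H3K14ac. Histone genes lie above protein-coding genes in all 9 libraries, by the least in the WT H3K14ac library (47.7% against 40.3%).

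Across libraries, 23 histone genes carried H3K9ac in all 6 (52.3%, against 39.8% of protein-coding genes). It was present in some libraries for 10 (22.7%, against 28.4%) and in none for 11 (25%, against 31.8%). For H3K14ac, 19 were marked in all 3 libraries (43.2%, against 33.2%), 12 in some and 13 in none (29.55%, against 42.77%). All 9 libraries marked 14 members (31.8%, against 25.2%). At the other end, 9 members had no peak in any library (20.5%, against 23.7%). The classes differed in this respect. All 3 H3.3 genes, 7 of 9 H2B genes and 6 of 8 H4 genes were marked by H3K9ac in all 6 libraries, whereas 0 of 5 H3.1 genes and 1 of 4 H2A.Z genes were. Of the H3.1 genes, AT5G65360 and AT3G27360 were marked in 5 of 6, AT1G09200 in 2, and the remaining pair in none. The other 3 H2A.Z genes were marked in none. Of the replacement variants, 7 of 12 were marked in all 6, 1 in some and 4 in none, while the replicative genes numbered 15, 8 and 3 of 26. These counts are descriptions, since members of a family share sequence and some share a peak.

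**Figure D2:**
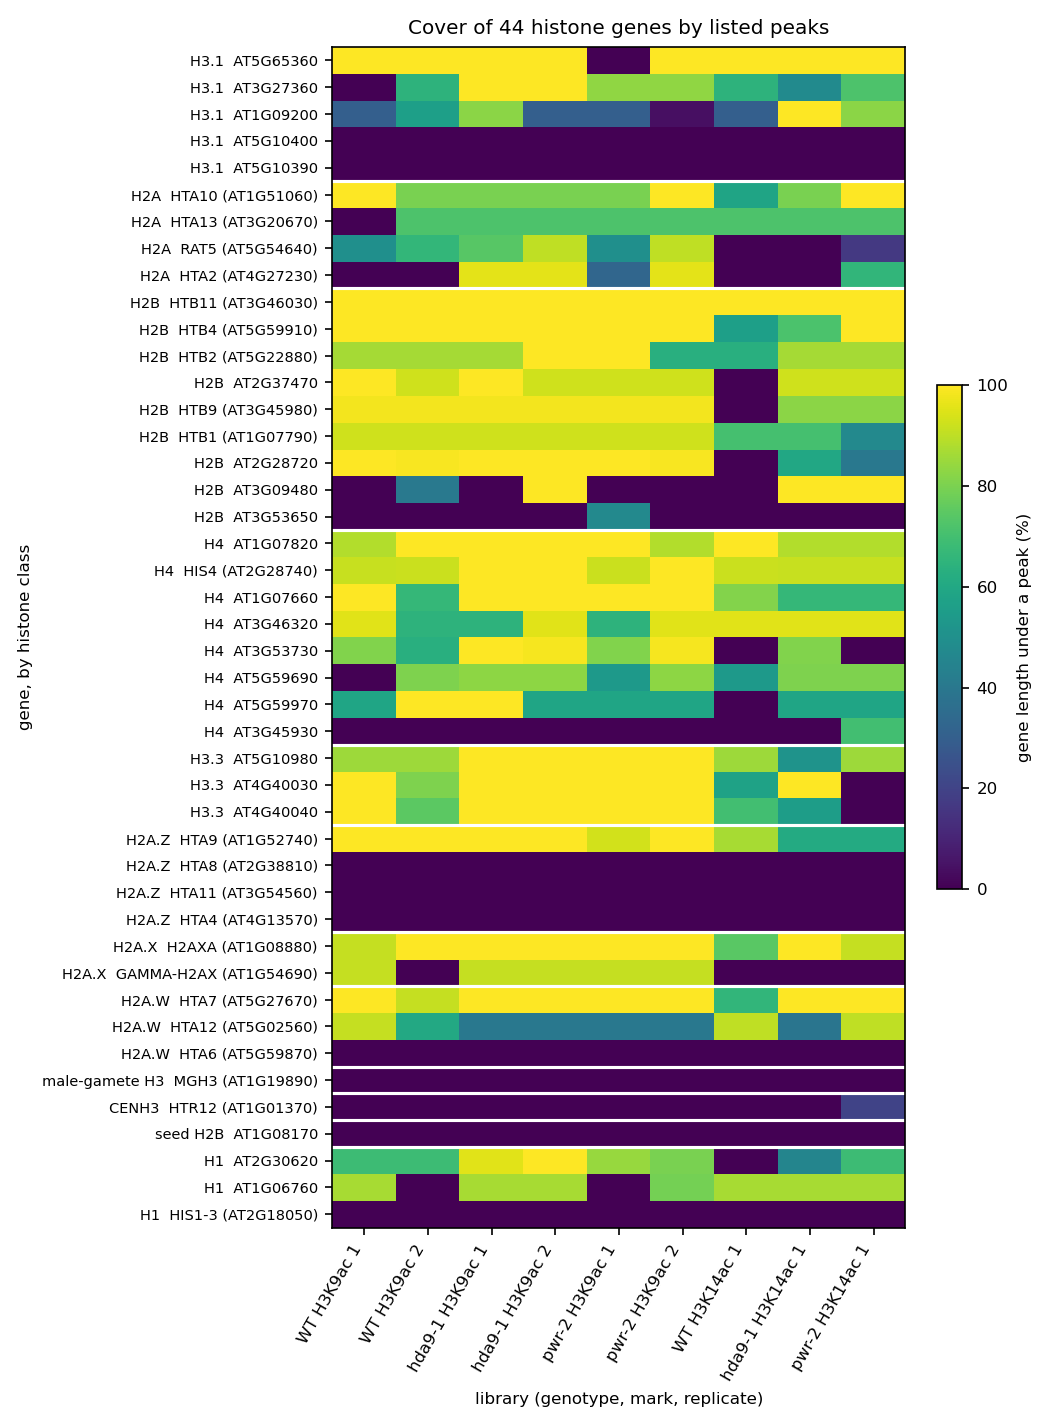
Percentage of each gene's length under listed peaks (colour, 0 to 100%) for the 44 histone genes (rows, by class) in the 9 libraries (columns, by genotype, mark and replicate). Rows dark throughout are the 9 genes with no peak in any library, and the H3.3, H2B and H4 blocks are covered in most columns.

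Replicative H3.1 genes encode the H3 form that is placed behind replication forks. AT5G65360 was covered over its whole 723 bp in both WT and both hda9-1 H3K9ac libraries and in the second pwr-2 library, and over 0 bp in the first pwr-2 library. All 3 H3K14ac libraries covered it completely. The missing value was thus 1 library and not a genotype. AT3G27360 was covered over 0 and 537 bp in WT, 833 bp in both hda9-1 libraries and 696 bp in both pwr-2 libraries, of 833 bp, so that both mutants lay above both WT libraries. Of protein-coding genes with a peak, 26% lay above WT in this way in hda9-1 and 14.3% in pwr-2. Its H3K14ac cover was 537 bp in WT, 400 bp for hda9-1 and 600 bp in pwr-2. AT1G09200 was grazed by a peak at its edge, with 230 and 430 bp in WT, 630 and 230 bp for hda9-1 and 230 and 30 bp in pwr-2, of 764 bp. It was marked only in the second WT and the first hda9-1 library, so the genotypes overlapped. Its H3K14ac cover was 230 bp in WT, 764 bp for hda9-1 and 630 bp in pwr-2, and the mark was therefore present in the mutants and not in WT. The adjacent pair AT5G10390 and AT5G10400 had no peak of either mark in any library.

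Replicative H2A is the partner of H2B in the nucleosome, and its 4 genes went separate ways. HTA10 (AT1G51060) was marked in all 9 libraries, with 746 to 936 of 936 bp under H3K9ac. HTA13 (AT3G20670) was covered over 0 bp in the first WT library and 546 bp in every other library of either mark. RAT5 (AT5G54640), named for the resistance of its mutant to Agrobacterium transformation, was covered by H3K9ac over 600 and 800 bp in WT, 892 and 1092 bp for hda9-1 and 600 and 1092 bp in pwr-2, of 1206 bp. The hda9-1 libraries lay above both WT libraries, as for 26% of protein-coding genes with a peak, and the pwr-2 libraries did not. H3K14ac covered RAT5 over 0 bp in WT, 0 bp for hda9-1 and 200 bp in pwr-2, which did not count as a mark in any library. HTA2 is described with the gains below.

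Of the 9 H2B genes, 7 carried H3K9ac in all 6 libraries. HTB11 (AT3G46030) lay entirely under peaks in all 9 libraries (748 bp). HTB4 (AT5G59910) lay entirely under H3K9ac in all 6 (1286 bp), and HTB1 (AT1G07790) had the same 790 of 853 bp in each. HTB2 (AT5G22880) was covered over 533 to 847 of 847 bp. These 4 genes also carried H3K14ac in every genotype. The other 3 genes with H3K9ac in all 6 libraries had no H3K14ac peak in WT: HTB9 (AT3G45980) had 600 bp in each mutant, AT2G28720 had 0, 600 and 400 bp in WT, hda9-1 and pwr-2, and AT2G37470 had 0, 928 and 928 bp. Their H3K9ac cover was 714 bp for HTB9 in every library, 993 to 1001 bp for AT2G28720 and 928 to 1002 bp for AT2G37470. The remaining pair was weakly marked. AT3G09480 had H3K9ac over 300 bp in the second WT library and 742 bp in the second hda9-1 library and none in the other 4, with H3K14ac over 742 bp in each mutant and 0 bp in WT. AT3G53650 had 451 bp of H3K9ac in the first pwr-2 library and no other peak of either mark.

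Histone H4 pairs with every H3 form, and 6 of its 8 genes carried H3K9ac in all 6 libraries. HIS4 (AT2G28740), AT1G07660, AT1G07820 and AT3G46320 were marked in all 9 libraries. AT3G53730 was covered by H3K9ac over 915 and 715 bp in WT, 1131 and 1115 bp for hda9-1 and 915 and 1115 bp in pwr-2, of 1131 bp; its H3K14ac cover was 0, 915 and 0 bp. AT5G59970 had H3K9ac over 529 and 899 bp in WT, 899 and 529 bp for hda9-1 and 529 bp in both pwr-2 libraries, with H3K14ac over 0, 529 and 529 bp. The genotypes thus overlapped for AT5G59970. For AT3G53730 the hda9-1 libraries lay above both WT libraries, as for 26% of protein-coding genes with a peak. AT5G59690 had no H3K9ac in the first WT library, 600 bp in the second, 618 bp in both hda9-1 libraries and 400 and 618 bp in pwr-2, and H3K14ac over 400, 600 and 600 bp. AT3G45930 was without H3K9ac in all 6 libraries and had 485 bp of H3K14ac in pwr-2 alone.

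Among replacement variants, the 3 H3.3 genes carried H3K9ac in all 6 libraries. AT4G40030 and AT4G40040 are next to each other with no annotated gene between them, and 1 H3K9ac peak spanned both genes in the first WT library, both hda9-1 libraries and both pwr-2 libraries; in the second WT library each lay under its own peak. AT4G40030 was covered over 1575 and 1269 bp in WT and over all 1575 bp in the 4 mutant libraries. AT4G40040 was covered over 1797 and 1345 bp in WT and over all 1797 bp in the mutants. The third gene, AT5G10980, had 996 bp in both WT libraries and its whole 1166 bp in all 4 mutant libraries. Both mutants thus lay above WT, as for 26% of protein-coding genes with a peak in hda9-1 and 14.3% in pwr-2.

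H2A.Z, the variant found around transcription starts and in responsive genes, was split between 1 gene with both marks and 3 with neither. HTA9 (AT1G52740) was marked in all 9 libraries, with H3K9ac over 1250 bp in both WT and both hda9-1 libraries and over 1165 and 1250 bp in pwr-2, and with H3K14ac over 1085, 765 and 765 bp. The genes HTA8 (AT2G38810), HTA11 (AT3G54560) and HTA4 (AT4G13570) had no peak of either mark in any library. The split was therefore the same in all 9 lists.

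The H2A.X genes encode the form phosphorylated at broken DNA. H2AXA (AT1G08880) was marked in all 9 libraries, with 1100 to 1207 of 1207 bp under H3K9ac. GAMMA-H2AX (AT1G54690) had 885 bp under H3K9ac in the first WT library, 0 bp in the second, and 885 bp in all 4 mutant libraries, with no H3K14ac in any genotype. Here the WT replicates were as far apart as the measure allows. Of the H2A.W genes, HTA7 (AT5G27670) was marked in all 9 libraries with 960 to 1052 of 1052 bp under H3K9ac, and HTA6 (AT5G59870) had no peak in any. HTA12 (AT5G02560) was marked in all 9 but over a varying length, described below.

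The specialised genes were almost free of both marks in seedlings. MGH3 (AT1G19890), the H3 of the male germ line, and AT1G08170, an H2B gene of seeds, had no peak in any library. HTR12 (AT1G01370), the centromeric H3 known as CENH3, had no H3K9ac peak and 600 of 2991 bp under H3K14ac in pwr-2, from a peak with 37 reads. Linker histone H1 binds DNA between nucleosomes. AT2G30620 was marked by H3K9ac in all 6 libraries. AT1G06760 had 1097 bp under H3K9ac in the first WT library, 0 bp in the second, 1097 bp in both hda9-1 libraries, and 0 and 1000 bp in pwr-2, while H3K14ac covered 1097 of 1264 bp in all 3 genotypes. HIS1-3 (AT2G18050), a drought-induced H1, had no peak in any library.

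The marks were set side by side in WT. Both H3K9ac libraries marked 24 histone genes, and 17 of these also carried H3K14ac (70.8%, against 68.9% of 12015 protein-coding genes marked in both). The 7 with H3K9ac and without H3K14ac were 6 replicative genes (AT2G28720, HTB9 and AT2G37470 of H2B, AT3G53730 and AT5G59970 of H4, and RAT5 of H2A) and the H1 gene AT2G30620. All 7 replacement genes marked in both WT H3K9ac libraries carried H3K14ac, against 10 of 16 replicative genes. The WT H3K14ac list rested on 667780 reads, the fewest of all lists. No histone gene had H3K14ac in WT without H3K9ac in at least 1 WT library.

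Read density was expressed as reads per kb of peak per 1000000 reads in peaks, for the peak or peaks over a gene. In 25 members with a peak in both WT H3K9ac libraries, the mean of the WT libraries ran from 34.0 to 56.2. The median WT density of histone gene peaks was 45.3 and 41.0, against a median over all listed peaks of 45.3 and 43.8, so that they stood near the middle of the genome's peaks. In hda9-1 the members' medians were 35.4 and 35.0 against 36.8 and 34.5 over all peaks, and in pwr-2 they were 42.4 and 40.9 against 41.0 and 39.2. Densities were lower in hda9-1 than in WT for peaks in general, and the covered sequence was longer, at 28.7 and 30.5 Mb against 23.1 and 23.7 Mb, and the level of a single member has to be read against that. By role, the WT medians were 45.4 and 40.5 for replicative genes and 45.4 and 44.3 for replacement genes.

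By the mean of both WT libraries, the densest peaks among these 25 genes were over an H2B, an H4 and an H3.3 gene. HTB9 had the highest mean, at 55.0 and 57.5 in WT, 45.0 and 31.5 for hda9-1 and 31.4 and 31.8 in pwr-2. Its peak on chromosome 3 ran from 16896201 to 16898000 in both WT libraries and began at 16894201 or 16894401 in the mutants other than the first hda9-1 library, where it was as in WT. The wider peaks thus had the lower density. In single WT libraries other genes lay above HTB9, with 56.0 for GAMMA-H2AX and 55.4 for AT3G46320 in the first and 63.0 for HTA13 and 61.5 for AT1G07660 in the second. The H4 gene AT1G07660 gave 46.2 and 61.5 in WT, 38.3 and 37.6 for hda9-1 and 48.6 and 41.4 in pwr-2. The H3.3 gene AT4G40040 gave 47.2 and 51.1 in WT, 39.9 and 38.4 for hda9-1 and 44.7 and 40.9 in pwr-2.

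Among the sparsest were AT5G65360 of H3.1, at 30.6 and 37.5 in WT, and AT2G37470 of H2B and AT1G07820 of H4, each with a mean of 35.5. AT2G37470 had 33.7 and 37.2 in WT, 34.6 and 39.3 for hda9-1 and 42.2 and 40.1 in pwr-2. AT1G07820 had 37.1 and 33.8 in WT, 32.3 and 30.7 for hda9-1, and 32.1 and 37.5 in pwr-2. AT5G65360 had 27.3 and 31.0 in hda9-1 and 29.2 in the 1 pwr-2 library with a peak. The order between these extremes was not resolved: the SD of the WT pair had a median of 2.28 and reached 21.1 for AT3G46320, whose values were 55.4 and 25.5, and the ranks of the 25 genes in the WT libraries correlated with a Spearman coefficient of 0.507, given as a description because the genes share libraries and some share a peak.

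**Figure D3:**
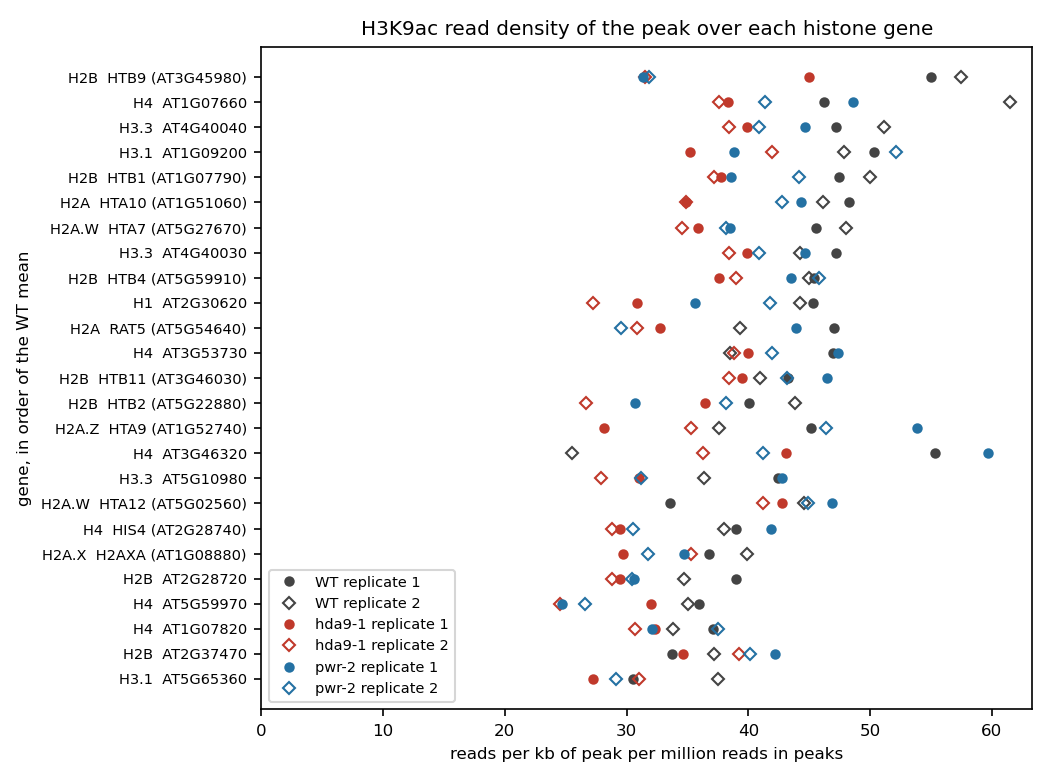
H3K9ac read density of the peak over each of the 25 histone genes with a peak in both WT libraries (horizontal axis, reads per kb of peak per 1000000 reads in peaks), in order of the WT mean. Colours are genotypes, filled circles replicate 1 and open diamonds replicate 2. HTB9 has the highest WT mean and AT5G65360 the lowest, and WT points lie to the right of the hda9-1 points for most genes.

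Gains and losses of a mark were then counted between each mutant and WT, with a gain defined as a mark in both libraries of the mutant and in none of WT. Both mutants are compared with the same WT libraries, so their lists are not independent. In hda9-1, 1 of the 13 members that could gain H3K9ac did so (7.69%), against 10.2% of protein-coding genes, and 0 of 24 were lost, against 1.16%. In pwr-2 the counts were 1 of 13 against 5.59%, and 0 of 24 against 1.54%. The counts of gains moved with the WT libraries: 3 and 4 members gained in hda9-1, and 2 and 4 in pwr-2, with the first or the second WT library left out.

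The gained gene was HTA2 (AT4G27230), a replicative H2A gene, in both mutants. Its H3K9ac cover was 0 bp in both WT libraries, 1165 of 1214 bp in both hda9-1 libraries, and 400 and 1165 bp in pwr-2. No WT library listed a peak over the gene, and all 4 mutant libraries did. The merged region around it, 5200 bp wide, was not free of peaks in WT. It held 1600 bp of peak with 92 reads in the first WT library and 0 bp in the second. The peaks on chromosome 4 ran from 13637001 to 13638400 and from 13633201 to 13638400 in hda9-1, with 518 and 2238 reads, and from 13637801 to 13638200 and from 13635801 to 13638400 in pwr-2, with 74 and 639 reads. Their densities were 30.2 and 23.7 for hda9-1 and 49.2 and 27.7 for pwr-2, which placed them at the 21.3 and 5.73 percentiles of peaks in hda9-1 and the 73.1 and 9.54 percentiles in pwr-2. In 3 of 4 libraries HTA2 therefore lay under a peak of low density, in lists deeper than those of WT. H3K14ac covered HTA2 over 0 bp in WT, 0 bp for hda9-1 and 800 bp in pwr-2. The pwr-2 gain was not called where 50% of the whole gene had to be covered, since the first library covered 400 bp, nor where the weakest 25% of peaks were left out. The part of sequencing depth in the gain was not tested.

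For H3K14ac, with 1 library per genotype, hda9-1 gained 7 of 23 members (30.4%, against 20.8% of protein-coding genes) and lost 0 of 21 (against 13.3%). The 7 were the H3.1 gene AT1G09200, the H2B genes AT2G28720, HTB9, AT2G37470 and AT3G09480, and the H4 genes AT3G53730 and AT5G59970. All 7 are replicative, as were most members that could gain. In WT, 13 of 26 replicative and 7 of 12 replacement genes already carried H3K14ac, and 4 replacement genes had no peak in any library. In pwr-2, 9 of 23 were gained (39.1%, against 21.8%) and 2 of 21 lost (9.52%, against 11.9%). Of these 9, AT1G09200, the same 4 H2B genes and AT5G59970 were also on the hda9-1 list, and HTR12, HTA2 and the H4 gene AT3G45930 were not. The shares gained lay above the background in both mutants, and the mutant lists were deeper than the WT list (875104 and 1090139 against 667780 reads). The gained peaks varied in size. In hda9-1 and pwr-2, HTB9 had 45 and 48 reads, AT2G28720 had 45 and 45, AT2G37470 had 61 and 92, AT5G59970 had 62 and 77, AT1G09200 had 156 and 148, and AT3G09480 had 181 and 263. AT3G53730 had 200 reads in hda9-1, and in pwr-2 HTR12, AT3G45930 and HTA2 had 37, 39 and 49.

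The pair of H3K14ac losses in pwr-2 was the adjacent H3.3 pair. AT4G40030 had 906 bp in WT, 1575 bp for hda9-1 and 0 bp in pwr-2, and AT4G40040 had 1252, 997 and 0 bp. In WT both lay under 1 peak on chromosome 4 from 18556201 to 18558400 with 78 reads, so the losses are 1 event. The pwr-2 list held 1090139 reads and the WT list 667780, and the part of depth was not tested. Their H3K9ac cover in pwr-2 was complete in both libraries, and AT5G10980, the remaining H3.3 gene, carried H3K14ac with 996, 600 and 996 bp in WT, hda9-1 and pwr-2. With 1 library per genotype this has no replicate check.

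**Figure D4:**
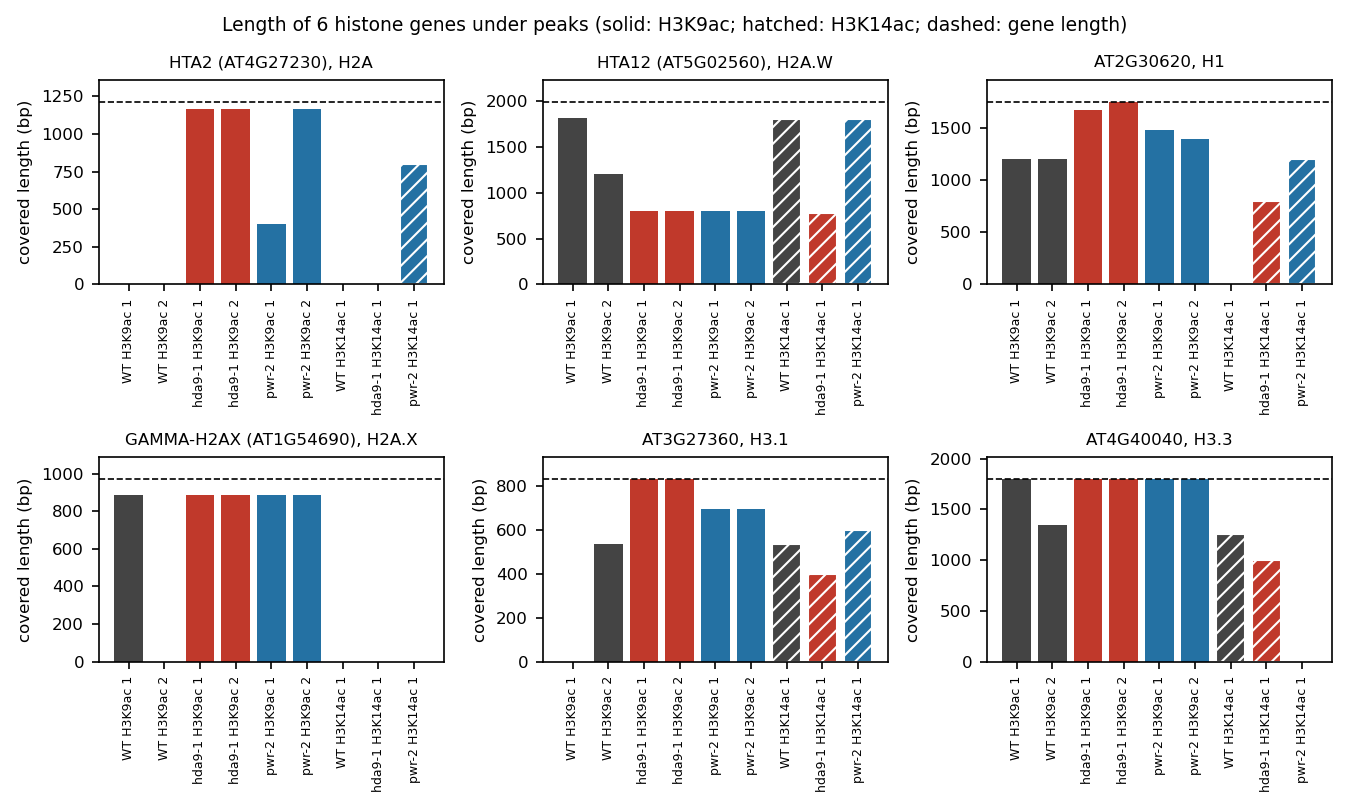
Length under peaks (bp, vertical axis) of 6 histone genes in each library; solid bars are H3K9ac, hatched bars H3K14ac, colours are genotypes and the dashed line is the gene's length. HTA2 has bars in no WT library, HTA12 is covered over 800 bp in all 4 mutant H3K9ac libraries against 1816 and 1200 bp in WT, and AT4G40040 lacks H3K14ac in pwr-2.

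Covered length gives a finer measure than the mark. Among 32 histone genes with an H3K9ac peak in WT or hda9-1, 8 were covered over a greater length in both hda9-1 libraries than in both WT libraries (25%, against 26% of 19040 protein-coding genes) and 1 over a shorter length (3.12%, against 4.66%). Among 33 with a peak in WT or pwr-2, 4 were covered further (12.1%, against 14.3% of 18793) and 1 less (3.03%, against 7.76%). The 4 genes on both longer lists were AT3G27360 of H3.1, AT5G10980 of H3.3, HTA2 and the H1 gene AT2G30620; RAT5 and the H4 genes AT5G59690, AT3G53730 and HIS4 were on the hda9-1 list and not on the pwr-2 list.

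HTA12, which encodes the heterochromatic variant H2A.W, was the gene on both shorter lists. Its H3K9ac cover was 1816 and 1200 bp in WT and 800 bp in each of the 4 mutant libraries, of 1992 bp. The peak on chromosome 5 ran from 575401 to 576200 in all 4 mutant libraries and from 575401 to 577800 and 576600 in the WT libraries, so the same end was shorter in each. Over all listed peaks the median width was 1400 bp in both WT and both pwr-2 libraries and 1400 and 1600 bp in hda9-1, and the part of depth in the shorter cover was not tested. Read density within the HTA12 peak was 33.6 and 44.6 in WT, 42.8 and 41.2 for hda9-1, and 46.9 and 44.9 in pwr-2, so it did not separate the genotypes. H3K14ac covered 1800 bp in WT, 776 bp for hda9-1 and 1800 bp in pwr-2.

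Reads inside listed peaks were compared in regions made by merging the peaks of the 6 H3K9ac libraries. The value of a region in a library is the sum over its listed peaks there. Sequence of the region outside a listed peak adds no reads, so CPM and log2 changes depend on the length called as peak. The part of depth in that length was not tested. Of the 44 members, 33 lay in a region and 30 in 1 of 28 regions with a peak in all 6 libraries; HTA2, AT5G59690 and AT1G06760 lay in regions that at least 1 library lacked. Among the 30, 6 had no peak over the gene itself in at least 1 library. The regions were wider than the genes, with a median of 4500 bp (1000 to 14800), a median of 3.5 genes, and a median of 19.8% of their length inside the histone gene, so most changes below belong to a neighbourhood. The quasi-likelihood test of edgeR was run on the counts over all 8332 such regions, with Benjamini-Hochberg adjustment. The replicates are labelled as biological and nothing says that they were grown apart, so p-values measure the spread between these libraries alone.

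No region passed an adjusted p of 0.05 with edgeR in hda9-1 against WT (0% of 8332 regions; smallest adjusted p 0.216), in pwr-2 against WT (0%; 0.182) or in hda9-1 against pwr-2 (0%; 0.541), and 0 of the 28 histone regions did. At an unadjusted p under 0.05, edgeR gave 1016, 1224 and 324 regions (12.2%, 14.7% and 3.89%), among them 3, 4 and 0 of the 28 histone regions. DESeq2 called 154, 204 and 28 regions (1.85%, 2.45% and 0.336%), of which 1, 0 and 0 held a histone gene. The log2 change of the 28 regions had a median of -0.01 in hda9-1 and -0.06 in pwr-2, against -0.008 and -0.002 over all regions, with 11 regions higher and 17 lower in each mutant. Estimates ran from -0.94 to 0.82 in hda9-1 and from -0.83 to 0.52 in pwr-2, with a median SE of 0.20 in each. Between the mutants they ran from -0.31 to 0.40.

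**Figure D5:**
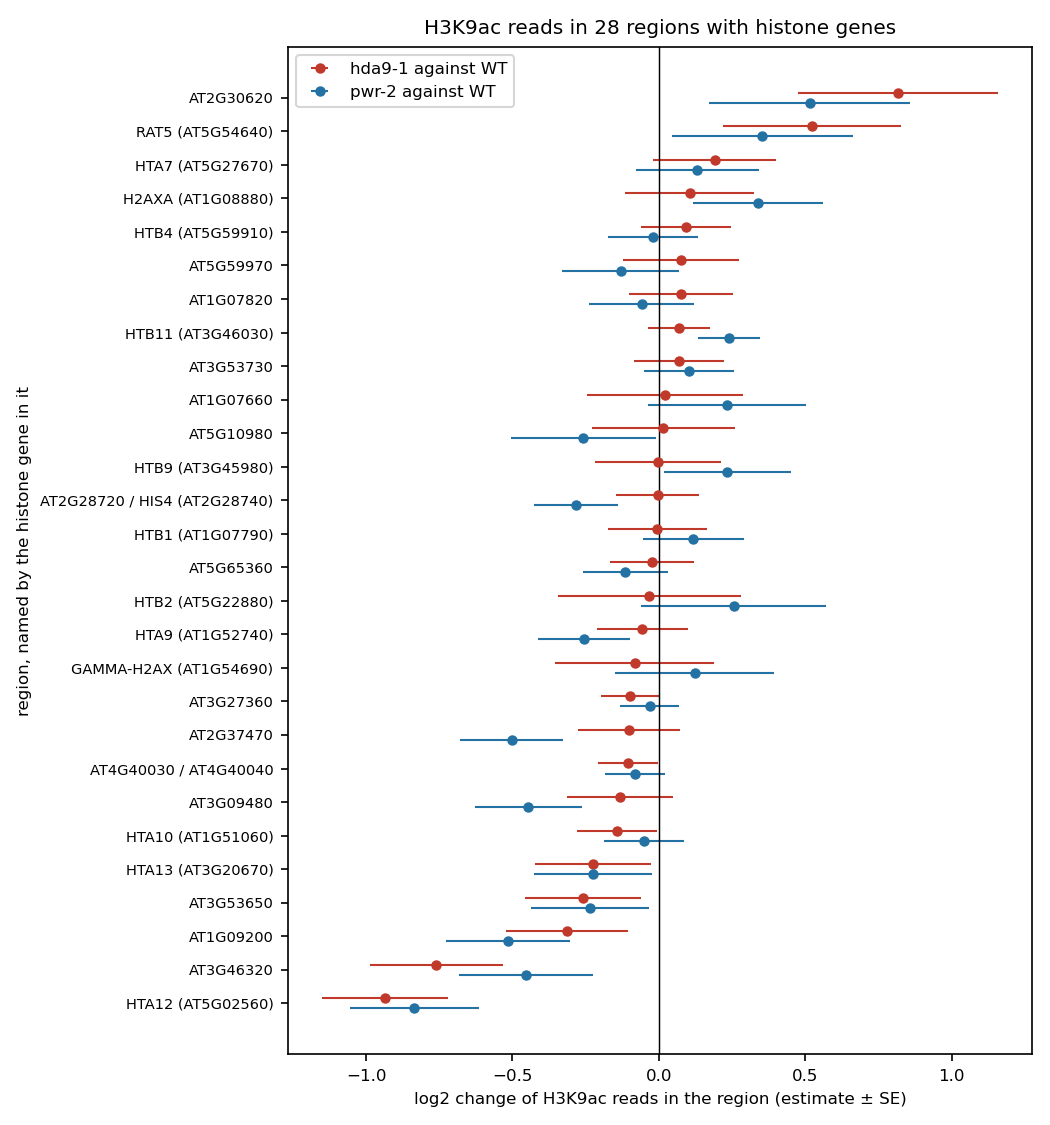
Log2 change of H3K9ac reads inside listed peaks of the 28 tested regions that hold histone genes, in hda9-1 (red) and pwr-2 (blue) against WT. Points on the horizontal axis are estimates and bars ± 1 SE, in order of the hda9-1 estimate. HTA12 lies lowest in both mutants (-0.94 and -0.83) and AT2G30620 highest (0.82 and 0.52); no region passed the adjusted threshold with edgeR.

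The region of HTA12 had the lowest estimate in both mutants. Its level, in counts per 1000000 reads of the tested regions (CPM), was 87.3 and 59.4 in WT, 38.9 and 37.7 for hda9-1, and 42.0 and 40.2 in pwr-2. Neither mutant overlapped WT, an order that the choice of an extreme estimate makes likely. The share of all tested regions without such overlap was not computed, here or for the regions below. The log2 change was -0.94 ± 0.21 (SE) in hda9-1 (edgeR adjusted p = 0.264) and -0.83 ± 0.22 in pwr-2 (edgeR adjusted p = 0.235). DESeq2 gave -0.94 in hda9-1 with an adjusted p of 0.0370. This was the histone region that DESeq2 called. The region is 2400 bp wide, with 75.7% of it inside HTA12 and 1 other gene. Per covered bp the direction turned, to 0.42 in hda9-1 and 0.38 in pwr-2 (edgeR adjusted p = 0.428 and 0.404). The reads are summed inside listed peaks, which spanned 2400 and 1200 bp of the region in WT and 800 bp in each mutant library. The part of peak length in the lower reads was not tested.

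The region of the H1 gene AT2G30620 had the highest estimate. It held 59.0 and 58.9 CPM in WT, 77.0 and 130 CPM in hda9-1 and 63.8 and 104 CPM in pwr-2, so all 4 mutant libraries lay above WT and the mutant replicates differed among themselves. The log2 change was 0.82 ± 0.34 in hda9-1 (edgeR adjusted p = 0.407) and 0.52 ± 0.34 in pwr-2 (adjusted p = 0.514). The peak on the gene covered 1200 bp of it in both WT libraries, 1670 and 1752 bp for hda9-1 and 1482 and 1400 bp in pwr-2. Its density was 45.3 and 44.2 in WT, 30.8 and 27.2 for hda9-1 and 35.6 and 41.8 in pwr-2. Per covered bp the estimates were -0.33 and -0.19. Its H3K14ac cover was 0, 800 and 1200 bp in WT, hda9-1 and pwr-2, none of which counted as a mark at an end.

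The H4 gene AT3G46320 had the other low value in hda9-1, at 84.0 and 113 CPM in WT, 58.7 and 58.0 CPM in hda9-1 and 80.2 and 64.5 CPM in pwr-2. Both mutants lay below WT. The log2 change was -0.76 ± 0.23 in hda9-1 (edgeR adjusted p = 0.321) and -0.45 ± 0.23 in pwr-2 (adjusted p = 0.406). Its second WT peak was 4000 bp wide, against 1200 or 1400 bp in each other library, and its gene fills 14.7% of the region. Per covered bp the estimates were 0.33 and 0.50.

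In pwr-2, 3 more replicative genes lay in regions with an unadjusted p under 0.05. The region of the H2B gene AT2G37470 held 146 and 140 CPM in WT, 141 and 126 CPM in hda9-1 and 94.5 and 108 CPM in pwr-2, a log2 change of -0.50 ± 0.18 in pwr-2 (edgeR adjusted p = 0.291). That of the H3.1 gene AT1G09200 held 54.5 and 74.4 CPM in WT, 56.0 and 47.9 CPM in hda9-1 and 43.5 and 46.6 CPM in pwr-2, with log2 changes of -0.31 ± 0.21 and -0.52 ± 0.21 (adjusted p = 0.586 and 0.335). The H2B gene AT3G09480 lay in a region with 169 and 135 CPM in WT, 135 and 141 CPM in hda9-1 and 116 and 107 CPM in pwr-2 (-0.45 ± 0.18 in pwr-2, edgeR adjusted p = 0.335). In each of the 3, both pwr-2 libraries lay below both WT libraries, an order that the choice by low p makes likely. The share of all tested regions whose CPM does not overlap between genotypes was not computed, for these or for the other named regions. Per covered bp all 3 estimates in pwr-2 were above 0, at 0.35, 0.04 and 0.26.

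Values for the remaining named regions follow, and none passed the edgeR threshold. Among H2A genes, RAT5 was highest, with 30.6 and 35.0 CPM in WT, 52.0 and 42.3 CPM in hda9-1 and 29.5 and 52.9 CPM in pwr-2 (log2 change 0.52 ± 0.30 and 0.35 ± 0.31). The hda9-1 libraries lay above WT and the pwr-2 libraries lay on both sides of it. HTA13 was lowest, at 95.1 and 112 CPM in WT, 94.7 and 82.4 CPM in hda9-1 and 82.9 and 94.1 CPM in pwr-2 (-0.23 ± 0.20 and -0.22 ± 0.20). Among H2B genes, HTB4 had 197 and 220 CPM in WT and 222 and 223 CPM in hda9-1 (0.09 ± 0.15), with 185 and 225 CPM in pwr-2. AT3G53650 had 65.1 and 50.4 CPM in WT, 48.6 and 47.8 CPM in hda9-1 and 53.7 and 44.7 CPM in pwr-2 (-0.26 ± 0.20 in hda9-1). HTB2 had 86.8 and 97.4 CPM in WT, 82.7 and 97.4 CPM in hda9-1 and 144 and 76.7 CPM in pwr-2 (0.26 ± 0.32 in pwr-2), so the pwr-2 replicates spanned the WT values.

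Of the H4 genes, AT5G59970 had 306 and 201 CPM in WT, 264 and 270 CPM in hda9-1 and 230 and 233 CPM in pwr-2 (0.08 ± 0.20 in hda9-1). With the weakest 25% of peaks left out, which redraws the region, the hda9-1 estimate for AT5G59970 was 1.48 ± 0.23 (edgeR adjusted p = 0.241). AT1G07660 had 70.1 and 41.0 CPM in WT, 60.9 and 51.5 CPM in hda9-1 and 65.3 and 64.8 CPM in pwr-2 (0.23 ± 0.27 in pwr-2). In the regions as first drawn, both mutants lay between the WT values for these genes. The H3.3 pair AT4G40030 and AT4G40040 shared a region with 471 and 499 CPM in WT, 463 and 439 CPM in hda9-1 and 432 and 484 CPM in pwr-2 (-0.11 ± 0.10 in hda9-1). The region of AT5G10980 held 202 and 226 CPM in WT, 204 and 229 CPM in hda9-1 and 134 and 223 CPM in pwr-2 (0.02 ± 0.25 and -0.26 ± 0.25).

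For the variants of H2A, HTA9 of H2A.Z had 157 and 159 CPM in WT, 160 and 144 CPM in hda9-1 and 134 and 131 CPM in pwr-2 (-0.06 ± 0.16 and -0.26 ± 0.16), with pwr-2 below both WT libraries. H2AXA had 332 and 239 CPM in WT, 344 and 269 CPM in hda9-1 and 412 and 310 CPM in pwr-2 (0.10 ± 0.22 and 0.34 ± 0.22). GAMMA-H2AX had 133 and 81.4 CPM in WT, 104 and 98.4 CPM in hda9-1 and 131 and 103 CPM in pwr-2 (-0.08 ± 0.27 in hda9-1). HTA7 had 118 and 85.4 CPM in WT, 114 and 118 CPM in hda9-1 and 112 and 111 CPM in pwr-2 (0.19 ± 0.21 and 0.13 ± 0.21). In these last 3 the spread between the WT libraries was wider than the difference between genotypes.

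Genes for the proteins that carry and place histones were read in the same way. Of 23 such genes, 13 were marked by H3K9ac in all 6 libraries, 8 in some and 2 in none, and 11 carried H3K14ac in all 3. Over protein-coding genes, 39.8% carried H3K9ac in all 6 libraries and 31.8% in none, and 33.2% carried H3K14ac in all 3. Of those that could gain H3K9ac, 10.2% did so in hda9-1 and 5.59% in pwr-2. Of those that could lose it, 1.16% and 1.54% did so. Among the 23, those unmarked in both WT H3K9ac libraries, and so able to gain, were FAS1 (AT1G65470), UBN2 (AT1G77310), TSK (AT3G18730), CABIN1, SPT16 and DDM1. CABIN1 (AT4G32820), a subunit of the HIR chaperone of H3.3, gained H3K9ac in both mutants, with 0 bp in both WT libraries, 600 bp in both hda9-1 libraries and 800 and 600 bp in pwr-2. SPT16 (AT4G10710), a subunit of the FACT chaperone, did as well, with 0 bp in WT, 957 and 757 bp for hda9-1 and 757 bp in both pwr-2 libraries. DDM1 (AT5G66750), the remodeller that places H2A.W, gained it in hda9-1, from 191 bp in both WT libraries to 504 and 1695 bp, with 304 and 0 bp in pwr-2. The region around it had log2 changes of -0.21 ± 0.34 in hda9-1 and -0.94 ± 0.34 in pwr-2 (edgeR adjusted p = 0.834 and 0.301). None of the 23 lost H3K9ac. In the 16 regions that held 1 of them, edgeR called 0 in either mutant, with 2 and 3 at an unadjusted p under 0.05. Over all 8332 tested regions, 12.2% in hda9-1 and 14.7% in pwr-2 had such an unadjusted p. ASF1A (AT1G66740), a chaperone of H3 with H4, had log2 changes of 0.64 ± 0.20 and 0.73 ± 0.20 (edgeR adjusted p = 0.328 and 0.235), and NAP1;1 (AT4G26110), a chaperone of H2A with H2B, had -0.43 ± 0.16 and -0.70 ± 0.16 (edgeR adjusted p = 0.363 and 0.235) in hda9-1 and pwr-2.

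Histone genes are scattered over all 5 chromosomes in these loci, with 2 adjacent pairs and 6 pairs with at most 5 genes between them, which hold 12 members. The adjacent pairs were opposites: the H3.3 pair was covered in all 6 H3K9ac libraries, and the H3.1 pair in none. AT2G28720 of H2B and HIS4 of H4, with 2 genes between them, lay in 1 H3K9ac region, which held 279 and 247 CPM in WT, 261 and 263 CPM in hda9-1 and 235 and 198 CPM in pwr-2. They differed in H3K14ac, which covered HIS4 over 656 to 659 bp in all 3 genotypes and AT2G28720 over 0 bp in WT.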

How the data were processed

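Bowtie, SICER and the build TAIR10 are named in the submitters' processing notes; versions, thresholds and how duplicate and multiply mapped reads were treated are not stated by the sources read here. The authors deposited 9 lists, 1 per library, with positions in steps of 200 bp and a whole number per peak. That number was read as a count of reads in the peak, from the deposited values alone: it followed peak width (Spearman coefficient 0.797 to 0.938). Positions are printed counted from 1 on TAIR10. Gene positions were taken from RefSeq (TAIR10.1) in a table without strand, so no gene position is printed and either end could carry a mark. Gene and peak positions matched best without any shift in each of 45 pairs of a library and a chromosome.

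The H3K9ac peaks were merged into 12753 regions, and the 8332 with a peak in all 6 libraries were tested with edgeR 4.0.16 (R 4.3.3, quasi-likelihood, TMM factors, all 6 libraries in 1 fit without a block, Benjamini-Hochberg adjustment at 0.05); DESeq2 1.42.0 was an alternative. SE is the log2 change divided by the square root of F. Scripts were tested on simulated data. Named with values are members whose mark differs between libraries or is missing, the 3 densest and 3 sparsest, and per class the largest rise and fall. Members and lists were chosen with earlier results of these data known. Alternatives were any overlap, 50% of the whole gene, leaving out the weakest 25% of peaks, each library left out, reads per covered bp, and a replicate block.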

Additional observations from a re-analysis of the deposited data

How the results depend on the processing

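The counts of histone genes marked by H3K9ac stayed within 1.5 times under the alternatives run; H3K14ac in WT went from 21 to 11 without the weakest peaks. Gained genes numbered 1 to 4 in each mutant when a library was left out (3 and 4 in hda9-1 without the first or second WT library, 2 and 4 in pwr-2), and 0 in pwr-2 with 50% of the whole gene or stricter peaks. Lost genes numbered 1 in each mutant with 50% of the whole gene, 2 in hda9-1 and 1 in pwr-2 with stricter peaks, and 0 to 2 in pwr-2 with a library left out. The WT median cover of replicative minus replacement genes, 0.50 percentage points, was -21.3 without the H2B genes and -7.37 to 8.37 with 1 library; the density difference, -1.87, stayed within the spread of replicates (-3.81 to 0.06 with 1 library). The cause of these shifts was not tested.

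Region calls by edgeR were 0 under most alternatives. DESeq2 gave 154, 204 and 28 in hda9-1 against WT, pwr-2 against WT and hda9-1 against pwr-2. Reads per covered bp gave 1 in each mutant and 0 between them, and stricter peaks, with 4704 regions, gave 0, 1 and 1. With the replicate number as a block the counts were 0, 0 and 0. Per covered bp, 9 of the 28 histone regions were higher and 19 lower in hda9-1 (median -0.10), and 13 and 15 in pwr-2 (median -0.06). Estimates ran from -0.41 to 0.42 in hda9-1 and from -0.70 to 0.50 in pwr-2. In pwr-2 HTB9 was lowest (-0.70, edgeR adjusted p = 0.233), followed by GAMMA-H2AX (-0.61, edgeR adjusted p = 0.266). Same-numbered libraries deviated together with correlations of 0.08 (WT and hda9-1), 0.17 (WT and pwr-2) and 0.16 (both mutants) over regions. With 2 numbers only, these values cannot tell whether same-numbered libraries were handled together.

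Of 28 named log2 changes under 292 alternatives, 259 kept their sign and side of the threshold, 1 passed it (HTA12 with DESeq2 in hda9-1) and 32 changed sign. Per covered bp, hda9-1 gave -0.056 for H2AXA, -0.33 for AT2G30620, 0.33 for AT3G46320, 0.24 for AT3G53650, 0.42 for HTA12, -0.12 for AT5G10980, -0.11 for HTA7 and -0.14 for RAT5. The same setting in pwr-2 gave -0.11 for AT1G07660, -0.10 for H2AXA, 0.043 for AT1G09200, -0.19 for AT2G30620, 0.35 for AT2G37470, 0.50 for AT3G46320, 0.38 for HTA12, 0.025 for AT5G10980, -0.15 for HTB2, -0.15 for HTA7 and -0.15 for RAT5. Leaving out libraries in turn gave ranges through 0 in hda9-1 for H2AXA (-0.11 to 0.37), HTA9 (-0.13 to 0.016), GAMMA-H2AX (-0.39 to 0.32), AT5G10980 (-0.071 to 0.11), HTA7 (-0.020 to 0.45) and AT5G59970 (-0.19 to 0.42). In pwr-2 it did so for AT1G07660 (-0.11 to 0.67), AT5G10980 (-0.67 to 0.054), HTB2 (-0.27 to 0.65), HTA7 (-0.088 to 0.38) and RAT5 (-0.15 to 0.68). Estimates for HTA12, AT3G46320 and AT2G30620 kept their sign with any library left out, but their size moved by over 1.5 times in places: AT2G30620 went from 0.82 to 0.39 without hda9-1 replicate 2 and from 0.52 to 0.12 without pwr-2 replicate 2 (0.81 without pwr-2 replicate 1), AT3G46320 in pwr-2 went from -0.45 to -0.22 without WT replicate 2 and to -0.30 without pwr-2 replicate 2, and HTA12 in pwr-2 from -0.83 to -0.53 without WT replicate 1. Stricter peaks took AT5G59970 in hda9-1 from 0.08 to 1.48 (edgeR adjusted p = 0.241); the cause was not tested. Depth limits each statement about a missing peak, most in WT and for H3K14ac.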
